A study of Homo sapiens with 12 samples.

Results

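The G1 cyclins and the cyclin-dependent kinase (CDK) inhibitors were examined in 2 human cell lines in which components of Wnt-dependent transcription had been depleted. Members were taken by name, as 10 genes: the D-type cyclins CCND1, CCND2 and CCND3, the E-type cyclins CCNE1 and CCNE2, the CIP/KIP inhibitors CDKN1A, CDKN1B and CDKN1C, and the INK4 inhibitors CDKN2B and CDKN2C. All 18 probes carrying a RefSeq accession of these genes were used, out of 41000 probes on the array, of which 25398 could be given the symbol of 1 of 17240 genes.

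D-type cyclins bind CDK4 and CDK6, and E-type cyclins bind CDK2. The resulting kinases phosphorylate the retinoblastoma protein, which frees E2F factors to drive the genes of S phase. INK4 proteins bind CDK4 and CDK6 themselves, whereas CIP/KIP proteins bind assembled cyclin-CDK complexes. CCND1 is a widely studied candidate target of TCF and β-catenin in colorectal cancer, and in the intestine CDKN1A marks cells that have left the cycle.

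RNA came from 12 two-colour arrays, 6 per line. Ls174T is a colorectal cancer line with a mutant β-catenin and thus a constantly active Wnt pathway. HEK293T is an embryonic kidney line with an intact pathway, and it expresses viral oncoproteins that bind the retinoblastoma protein and p53, so that G1 control there is not that of an untransformed cell. All cells, controls included, were transfected for 72 h with 15 nM of an siRNA pool. In Ls174T the pools were a non-targeting control (si-control) and those against β-catenin, MLLT10, BRG1 and P300, named si-b-catenin and so on. In HEK293T the si-control cells received either control conditioned medium (CM) or Wnt3A medium for 9 h, and the cells with pools against MLLT10, BRG1, P300 or DOT1L all received Wnt3A medium for 9 h. MLLT10 and the histone methyltransferase DOT1L form a complex, BRG1 (SMARCA4) is the ATPase of a chromatin remodelling complex, and P300 (EP300) is a histone acetyltransferase.

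A pair of arrays, with the dyes exchanged, set si-b-catenin directly against si-control RNA, per the labels. In the study's methods a common reference is named for all hybridisations, which differs from the labels of this pair, and the labels were taken. On the other 10 arrays each RNA was set against a human reference RNA. Each condition was thus 1 RNA, with no biological replicate, and no test between conditions was possible. The error given with a value is the one the scanner program assigned to the ratio, combined over the arrays compared. It covers the reading of the spots and not the spread between cultures. A level is the log2 ratio of sample to reference on 1 array, and a change is the difference of 2 such levels, or the mean log2 ratio of the pair. A change was counted as higher or lower past 2-fold in Ls174T and past 1.5-fold in HEK293T, on probes with more than 2-fold local background signal in one channel or the other on all arrays involved. Probes of 1 gene read the same RNA and are not replicates, and the level of a probe was not set against that of another probe.

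Spots with usable signal numbered 18104 to 23077 on the pair and 27717 to 31011 on the reference arrays. The 14 colorectal epithelial markers were all above background on all reference arrays of Ls174T, and 7 of 7 measured HEK293T markers on all arrays of HEK293T. This call does not part the lines, with 8 to 12 of the former in HEK293T and 4 to 7 of the latter in Ls174T. Mean signals of colorectal markers were 175 to 351 times the background in Ls174T and 11.6 to 15.4 times in HEK293T. Those of HEK293T markers were 45.8 to 70.0 and 181 to 280 times. The mean signal of fibroblast and endothelial markers was 1.36 to 1.96 times the background and that of leukocyte markers 2.23 to 4.21 times, in both lines. The siRNA targets were lower where they were targeted. CTNNB1, which encodes β-catenin, changed by -2.70 and -2.49 on its probes, SMARCA4 by -2.53 to -2.24 in Ls174T and by -4.00 to -3.95 in HEK293T, and MLLT10 by -1.42 and -1.76. On EP300 probe A_23_P40693 the change was -0.60 in Ls174T and -2.35 in HEK293T, and on A_24_P7887 it was -1.31 and -2.98; the si-P300 sample was not well above background for -0.60 and -2.98. Of the 3 DOT1L probes, A_23_P101737 changed by -1.41, A_23_P408768 by -1.97 and A_24_P936875 by 0.17. The arrays lay on 5 slides. The si-control Wnt3A array of HEK293T was alone on its slide, so that for every comparison with it slide and condition cannot be told apart, whereas CM, si-MLLT10 and si-DOT1L shared a slide. The same limit holds for si-BRG1 and si-P300 of Ls174T against si-control, and for si-BRG1 and si-P300 of HEK293T against CM. Those arrays lay on another slide than their control. No depleted HEK293T cells received CM, so in every comparison of depleted cells with CM depletion and medium cannot be told apart.

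Over the 9 comparisons of a treated with its control RNA, 17 of 149 measured probe values of the members passed the fold, on probes of 7 genes, while between 1.75% and 22% of all probes passed it in either direction, depending on the comparison. CCNE1, CCNE2 and CDKN1C had none. The fold was 2 in Ls174T and 1.5 in HEK293T, so the counts of the lines are not on the same scale. Wnt3A in HEK293T went with higher CCND1 and lower CDKN1B, and BRG1 depletion in HEK293T with higher CDKN1A, CDKN1B and CDKN2B. In both, CDKN1B passed the fold on A_24_P81841 and not on its other probe. Against CM the si-BRG1 change of CDKN1B was -0.05 on both probes. CDKN2B in si-BRG1 was at 0.39 with another background correction, short of the fold. In that depletion 22% of all probes passed the fold in either direction. P300 depletion went with higher CDKN2C in Ls174T and with lower CDKN2C in HEK293T. The measured D-type cyclin probes of Ls174T stayed within 2-fold in all 4 depletions. In bulk RNA, a change in each cell and a change in the share of cells in a phase of the cycle cannot be told apart.

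**Figure D1:**
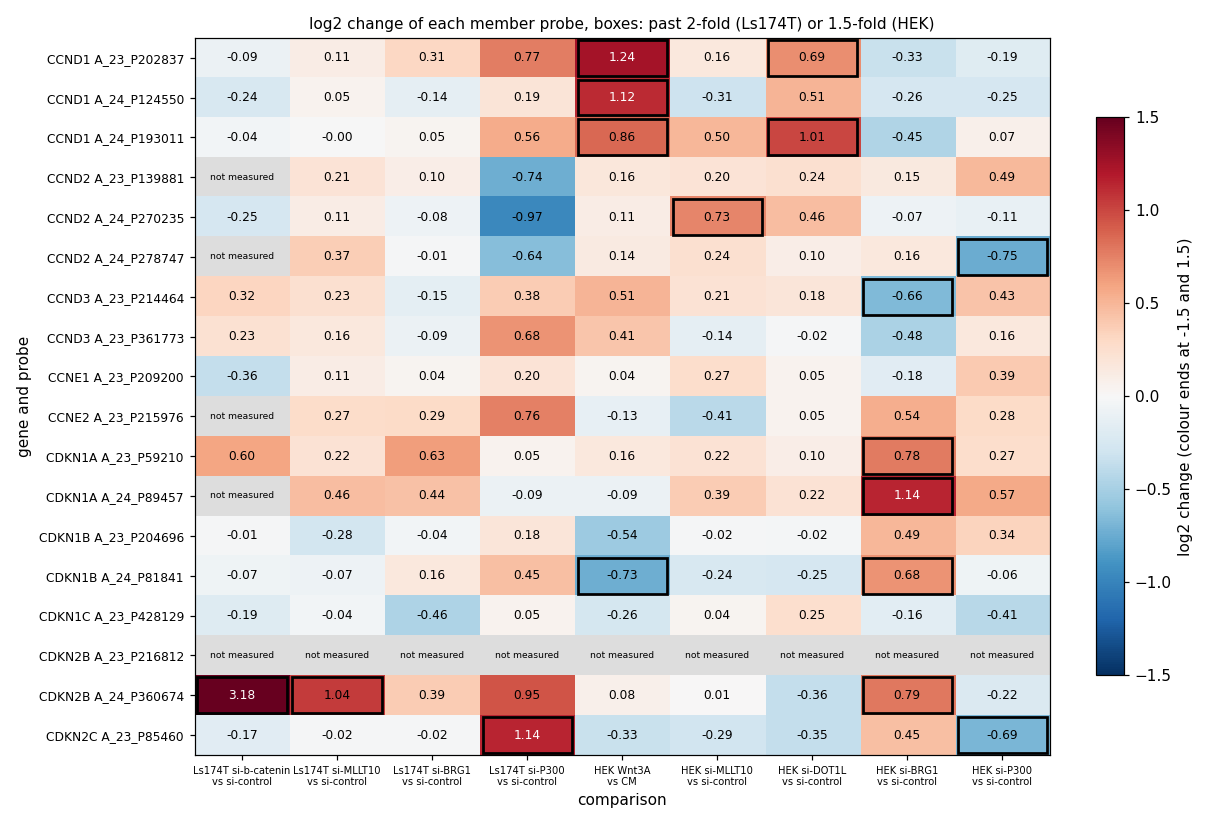
Changes of the 18 member probes (rows) in the 9 comparisons (columns), in log2 units, with colour from blue (lower) to red (higher) and boxes around values past 2-fold in Ls174T or 1.5-fold in HEK293T; grey cells did not reach the signal limit. The boxed CCND1 values stand in the Wnt3A and si-DOT1L columns, and 4 of the 5 boxes of the HEK293T si-BRG1 column are on CDK inhibitors.

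CCND1 encodes cyclin D1, the D-type cyclin most often raised in tumours. In Ls174T its level on probe A_23_P202837, which is printed on 10 spots, was 0.83 in si-control, 0.95 in si-MLLT10, 1.14 in si-BRG1 and 1.60 in si-P300. In HEK293T the level on this probe was -2.76 in CM, -1.51 in si-control with Wnt3A, -1.36 in si-MLLT10, -0.82 in si-DOT1L, -1.85 in si-BRG1 and -1.70 in si-P300. The lines did not overlap on any of the 3 probes, and within HEK293T the CM array was the lowest and the si-DOT1L array the highest on each of them. Among the 4 HEK293T arrays between these ends, neighbouring levels on A_23_P202837 lay closer together than their program error. The si-control level was 3.51 to 3.64 higher in Ls174T than in HEK293T with CM over the 3 probes, a comparison of 2 lines on different slides.

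Wnt3A raised CCND1 past 1.5-fold on 3 of 3 probes, by 1.24 ± 0.41 on A_23_P202837 (2.37-fold), 1.12 ± 0.32 on A_24_P124550 (2.17-fold) and 0.86 ± 0.39 on A_24_P193011 (1.81-fold). Over all probes tested in this comparison 3.77% were higher and 2.77% lower, and of the 17 member probes tested 3 were higher and 1 lower. From the sample channel alone, without the reference, the member split became 4 higher and 3 lower, and that over all probes 16.4% higher and 3.65% lower, with the median of all probes raised by 0.11. On that scale A_23_P202837 changed by 0.76. With another background correction A_24_P124550 changed by 0.64.

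CCND1 was also above CM in the depleted cells that received Wnt3A. All 5 Wnt3A arrays share the CM array as their control, so these values are not independent of each other. For the depleted cells, depletion and Wnt3A medium changed together and cannot be told apart. Past 1.5-fold were 14 of the 15 probe values, the exception being A_24_P193011 in si-BRG1 at 0.41. The 6 values of si-MLLT10 and si-DOT1L, which lay on the slide of the CM array, ranged from 0.81 to 1.94. Against CM, si-DOT1L gave 1.94 ± 0.39, 1.63 ± 0.32 and 1.86 ± 0.37 and si-MLLT10 gave 1.40 ± 0.41, 0.81 ± 0.33 and 1.35 ± 0.38 on A_23_P202837, A_24_P124550 and A_24_P193011. The corresponding values of si-BRG1 were 0.91, 0.86 and 0.41 and those of si-P300 were 1.06, 0.87 and 0.93. A_24_P124550 missed 1.5-fold under another background correction in si-MLLT10 (0.44) and si-P300 (0.44), and in the sample channel alone in si-BRG1 (0.41).

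Set against the si-control cells with Wnt3A, CCND1 was higher after DOT1L depletion on 2 of 3 probes, by 0.69 ± 0.33 and 1.01 ± 0.33, with 0.51 on the third, A_24_P124550. Of all probes in this comparison 2.1% were higher and 3.53% lower, and the 2 CCND1 values were the only member values of 17 past the fold. From the sample channel alone A_23_P202837 changed by 1.20. After MLLT10 depletion the 3 probes gave 0.16, -0.31 and 0.50. They were thus on both sides of 0, and 1 of 17 member probes, on CCND2, was higher and 0 lower where 3.51% of all probes were higher and 3.81% lower. Between si-MLLT10 and si-DOT1L, on the same slide, CCND1 was lower in si-MLLT10, with changes of -0.54, -0.83 and -0.51, of which A_24_P124550 passed 1.5-fold. That was the 1 member probe of 17 past the fold there, against 1.99% of all probes higher and 1.64% lower.

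After BRG1 and P300 depletion the CCND1 changes to si-control with Wnt3A lay between -0.45 and 0.07. In the sample channel alone A_24_P124550 changed past 1.5-fold downwards in si-BRG1, in place of -0.26. In Ls174T the si-b-catenin pair gave -0.17 and 0.00 on its 2 arrays for A_23_P202837, and the mean changes of the 3 probes were -0.09 ± 0.14, -0.24 ± 0.15 and -0.04 ± 0.14. The CTNNB1 change in the same pair was -2.70. None of the other Ls174T depletions took CCND1 past 2-fold, with the highest change, 0.77 ± 0.33, in si-P300.

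CCND2 and CCND3 encode the other D-type cyclins. CCND2 was the reverse of CCND1 between the lines. Its level on A_24_P270235 was -1.29 in si-control, -1.19 in si-MLLT10, -1.37 in si-BRG1 and -2.26 in si-P300 of Ls174T. In HEK293T it was 0.45 in CM, 0.55 in si-control with Wnt3A, 1.28 in si-MLLT10, 1.01 in si-DOT1L, 0.48 in si-BRG1 and 0.45 in si-P300. The lines did not overlap. In Ls174T the si-P300 array was the lowest, and in HEK293T the si-MLLT10 and si-DOT1L arrays lay above the other 4 on this probe. On A_23_P139881 the highest HEK293T level was that of si-P300, at 0.87. The si-control level in Ls174T was lower than that in HEK293T with CM, with changes of -1.48, -1.74 and -1.46 on the 3 probes.

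P300 depletion in Ls174T gave CCND2 changes of -0.74, -0.97 and -0.64, all below 0 and none past 2-fold. With 1.5-fold in place of 2-fold, 8 of the 17 member probes passed in this comparison, 5 higher and 3 lower, where 9.31% of all probes were higher and 5.6% lower. The 3 lower ones were the CCND2 probes. In the sample channel alone A_24_P270235 changed by -1.26, and the member split there was 1 higher and 1 lower. In HEK293T the 3 CCND2 probes disagreed after P300 depletion, with 0.49, -0.11 and -0.75 ± 0.32, and only A_24_P278747 was past 1.5-fold. After MLLT10 depletion A_24_P270235 was higher by 0.73 ± 0.32 and the other probes gave 0.20 and 0.24. After Wnt3A the 3 changes were 0.11 to 0.16.

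CCND3 had levels on A_23_P214464 of 0.63 in si-control, 0.86 in si-MLLT10, 0.48 in si-BRG1 and 1.01 in si-P300 of Ls174T. In HEK293T they were -0.48 in CM, 0.03 in si-control with Wnt3A, 0.24 in si-MLLT10, 0.21 in si-DOT1L, -0.63 in si-BRG1 and 0.45 in si-P300. The si-BRG1 and CM arrays were the 2 lowest of HEK293T, and si-P300 was the highest in both lines. BRG1 depletion lowered A_23_P214464 past 1.5-fold, with a change of -0.66 ± 0.30, and A_23_P361773 gave -0.48. With another background correction the change of A_23_P214464 was -0.49, under the fold. On the slide shared by si-BRG1 and si-P300 of HEK293T, both CCND3 probes were lower in si-BRG1, with changes of -1.09 ± 0.31 and -0.64 ± 0.31.

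The E-type cyclins, which drive entry into S phase through CDK2, had no change past the fold. CCNE1 levels ran from 0.03 to 0.24 in Ls174T, median 0.11, and from -0.18 to 0.38 in HEK293T, median 0.02, so that the lines overlapped. Its changes in the 9 comparisons lay between -0.36 and 0.39. The centred levels of CCNE1 over the 10 reference arrays had an SD of 0.163, the smallest of the 16 member probes that were above background on all of them. CCNE2 levels ran from -0.07 to 0.69 in Ls174T and from 0.39 to 1.34 in HEK293T, highest in si-P300 and si-BRG1 respectively. The highest CCNE2 changes were 0.76 in Ls174T si-P300 and 0.54 in HEK293T si-BRG1. The latter was 0.61 with another background correction and 1.06 in the sample channel alone, both past 1.5-fold. In the sample channel alone CCNE2 also passed 1.5-fold after Wnt3A, at -0.70 in place of -0.13. The same held in HEK293T si-P300, at 0.68 in place of 0.28.

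**Figure D2:**
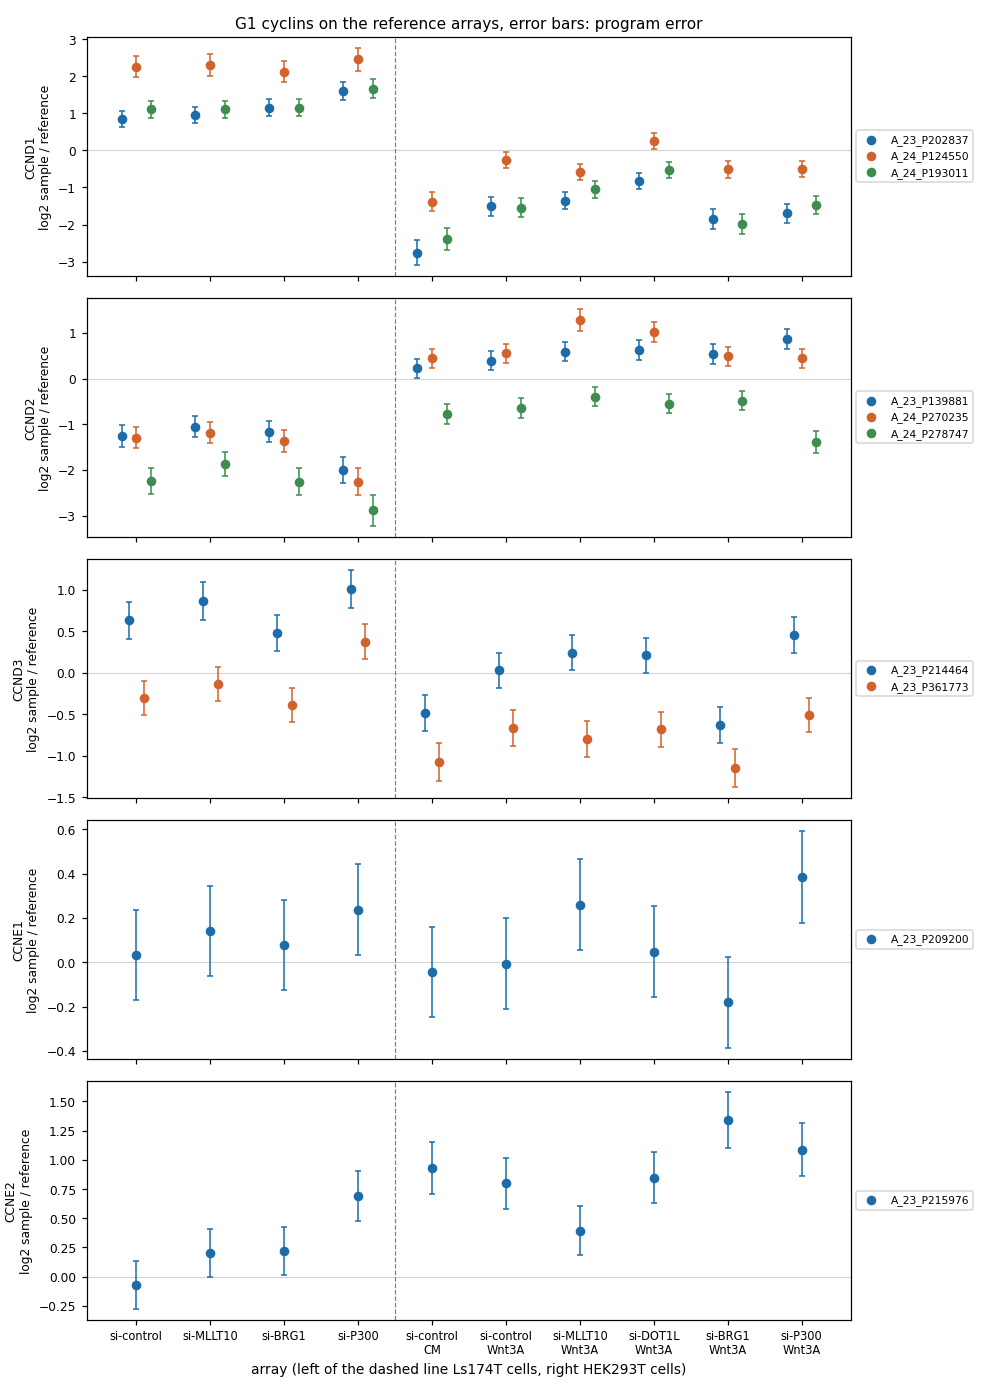
Levels of the 5 cyclin genes (log2 ratio of sample to reference, vertical axis) on the 10 reference arrays (horizontal axis), with a colour per probe and the program error as bars. CCND1 lies higher and CCND2 lower in Ls174T than in HEK293T on all their probes, and CCND1 is lowest in HEK293T with CM.

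CDKN1A encodes p21, a p53 target, CDKN1B encodes p27, which is high in resting cells, and CDKN2B encodes p15, a target of TGF-β signalling. These 3 genes are shown with the 250 bases before a transcription start, since their probes were the inhibitor probes past 1.5-fold after BRG1 depletion in HEK293T. The sequences are those of RefSeq on GRCh38.p14, written in the direction of transcription, with GC boxes, the letters GGGCGG or their reverse complement CCGCCC, in capitals. GC boxes bind factors of the SP and KLF families. CDKN1A lies at chr6:36678464-36678713 on the plus strand, CDKN1B at chr12:12717118-12717367 on the plus strand and CDKN2B at chr9:22009306-22009555 on the minus strand.
CDKN1A: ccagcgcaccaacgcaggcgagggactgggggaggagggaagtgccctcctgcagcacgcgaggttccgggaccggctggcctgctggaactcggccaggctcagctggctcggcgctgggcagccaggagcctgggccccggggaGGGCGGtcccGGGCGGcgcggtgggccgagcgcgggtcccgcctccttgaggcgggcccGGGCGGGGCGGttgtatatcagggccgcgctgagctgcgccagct
CDKN1B: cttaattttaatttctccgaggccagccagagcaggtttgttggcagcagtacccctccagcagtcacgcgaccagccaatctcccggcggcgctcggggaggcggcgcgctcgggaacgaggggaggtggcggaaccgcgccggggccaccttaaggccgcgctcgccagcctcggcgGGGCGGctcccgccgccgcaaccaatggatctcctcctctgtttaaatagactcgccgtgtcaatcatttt
CDKN2B: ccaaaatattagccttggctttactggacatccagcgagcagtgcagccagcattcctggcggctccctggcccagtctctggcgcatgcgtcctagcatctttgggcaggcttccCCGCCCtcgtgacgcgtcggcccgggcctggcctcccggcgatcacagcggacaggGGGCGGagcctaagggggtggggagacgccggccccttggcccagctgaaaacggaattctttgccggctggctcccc

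The windows hold 4, 1 and 2 GC boxes, and their GC content is 76.4%, 64.4% and 66.4%. A GC box occurs in 42.6% of 35116 such windows. None of the 3 windows holds the E2F letters TTTNGCGC, found in 1.51% of all windows, or the TCF letters CTTTGA, found in 11.2%, both strands searched. The CCNE1 window holds 7 GC boxes. CCND3 and CDKN2C have 3 starts each, with 5, 2 and 0 boxes and with 0, 5 and 1.

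**Figure D3:**
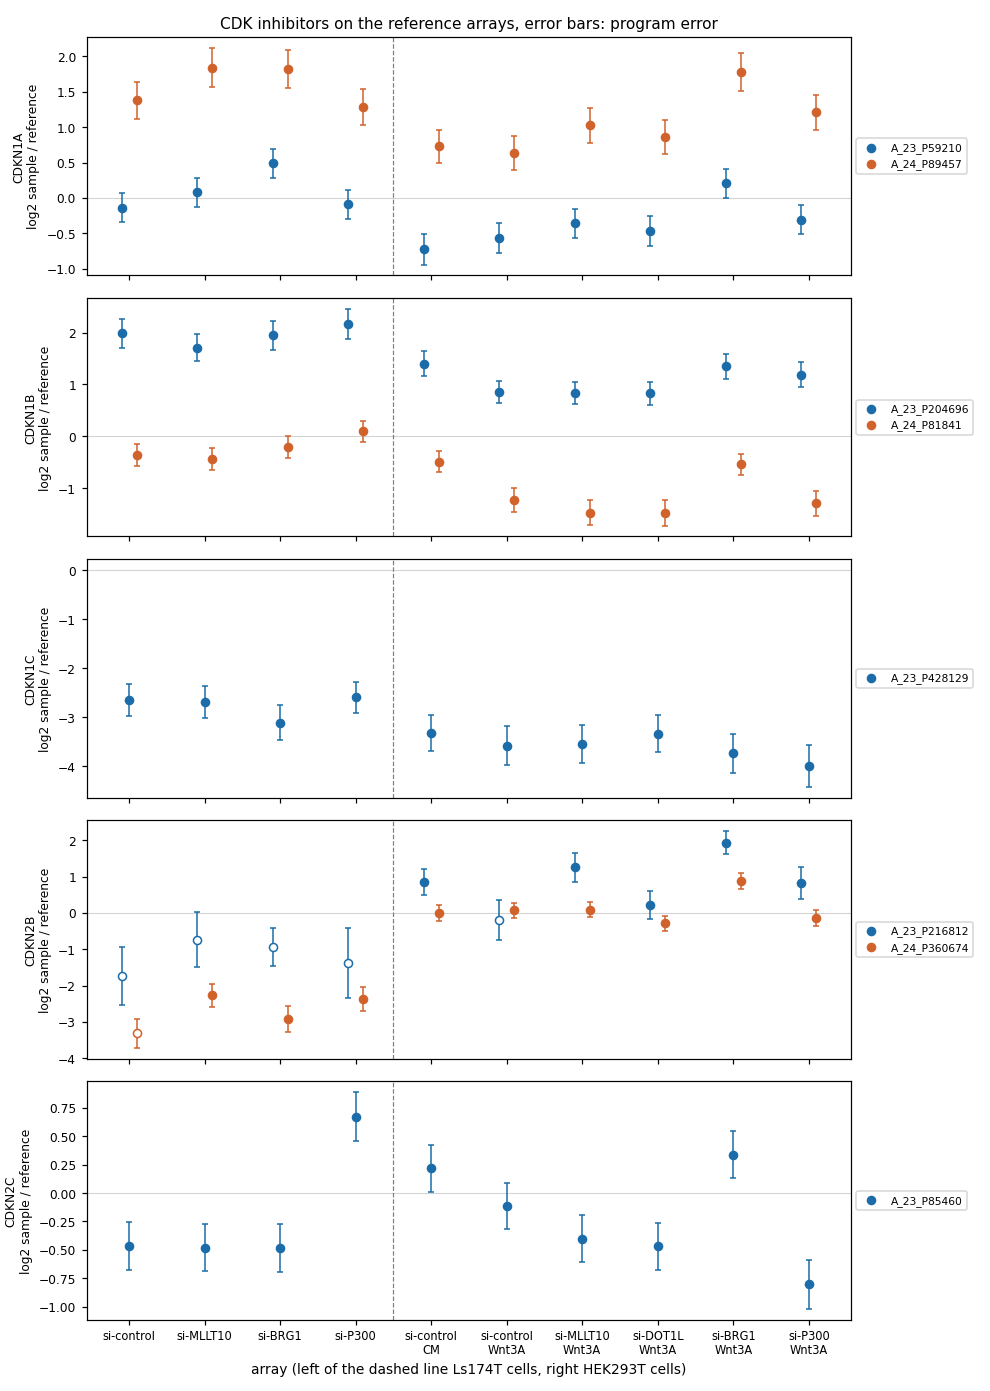
Levels of the 5 CDK inhibitor genes (log2 ratio of sample to reference, vertical axis) on the 10 reference arrays (horizontal axis), with a colour per probe and the program error as bars; open points mark samples too dim to stand well above background. CDKN1A is highest in si-BRG1 among the HEK293T arrays on both probes, and CDKN2C is highest of the Ls174T and lowest of the HEK293T arrays in si-P300.

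The CDKN1A level on A_23_P59210, printed on 10 spots, was -0.14 in si-control, 0.08 in si-MLLT10, 0.49 in si-BRG1 and -0.09 in si-P300 of Ls174T. In HEK293T it was -0.73 in CM, -0.57 in si-control with Wnt3A, -0.36 in si-MLLT10, -0.47 in si-DOT1L, 0.21 in si-BRG1 and -0.31 in si-P300. The si-BRG1 array was the highest of each line on this probe, and the HEK293T si-BRG1 level reached into the range of Ls174T. BRG1 depletion in HEK293T raised CDKN1A on both probes, by 0.78 ± 0.29 (1.72-fold) and by 1.14 ± 0.36 on A_24_P89457 (2.20-fold). Against CM the values were 0.93 and 1.04. In this depletion 10.4% of all probes were higher and 11.7% lower, and of 17 member probes 4 were higher and 1 lower.

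The 4 higher member probes in HEK293T si-BRG1 were all on CDK inhibitors and the lower one was on CCND3. From the sample channel alone the member split was 5 higher and 3 lower, and that over all probes 10.9% higher and 26.3% lower, with the median of all probes moved by -0.14. CDKN1C gave -1.14 and CCNE2 1.06 on that scale. In Ls174T BRG1 depletion the CDKN1A probes gave 0.63 ± 0.29 and 0.44, under 2-fold, and 0 of 17 member probes passed it where 3.75% of all probes were higher and 1.46% lower.

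β-catenin depletion gave 0.71 and 0.48 on its 2 arrays for A_23_P59210, a mean of 0.60 ± 0.14, under 2-fold and just past 1.5-fold. The other CDKN1A probe did not reach the signal limit on the dye-exchanged array. In that comparison 13 member probes were measured, of which 1, on CDKN2B, was higher and 0 lower, against 4.48% and 1.17% of all probes. MLLT10 depletion gave CDKN1A changes of 0.22 and 0.46 in Ls174T and of 0.22 and 0.39 in HEK293T, and Wnt3A gave 0.16 and -0.09.

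The CDKN1B level on A_24_P81841, printed on 10 spots, was -0.36 in si-control, -0.43 in si-MLLT10, -0.21 in si-BRG1 and 0.09 in si-P300 of Ls174T. In HEK293T it was -0.49 in CM, -1.22 in si-control with Wnt3A, -1.47 in si-MLLT10, -1.48 in si-DOT1L, -0.54 in si-BRG1 and -1.29 in si-P300. The CM and si-BRG1 arrays stood apart from the other 4 arrays of HEK293T. Wnt3A lowered the probe 1.66-fold, a change of -0.73 ± 0.31, and A_23_P204696 gave -0.54 ± 0.31, short of 1.5-fold. Against CM the change on A_24_P81841 was -0.99 ± 0.32 in si-MLLT10 and -0.99 ± 0.32 in si-DOT1L, both on the slide of the CM array. It was -0.81 in si-P300 and -0.05 in si-BRG1, so that on this probe 4 of 5 arrays with Wnt3A were past 1.5-fold below the CM array they share. In the depleted cells among them, depletion and Wnt3A medium cannot be told apart. On A_23_P204696 none of the 5 was, with -0.56 in si-MLLT10, -0.57 in si-DOT1L, -0.20 in si-P300 and -0.05 in si-BRG1.

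Set against si-control with Wnt3A, BRG1 depletion raised CDKN1B by 0.68 ± 0.31 on A_24_P81841, and A_23_P204696 gave 0.49. In si-MLLT10, si-DOT1L and si-P300 the CDKN1B changes lay between -0.25 and 0.34. On their shared slide, si-BRG1 was above si-P300 by 0.75 ± 0.32 on A_24_P81841, 0.36 in the sample channel alone, and by 0.16 on the other probe. In Ls174T the CDKN1B changes lay between -0.28 and 0.45 in the 4 depletions, none past 2-fold.

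CDKN1C encodes p57, an imprinted inhibitor. Its level was far below the reference throughout, from -3.11 to -2.60 in Ls174T and from -3.99 to -3.32 in HEK293T. The changes in the 9 comparisons ran from -0.46 to 0.25 and none passed the fold. Against CM the si-P300 change was -0.68 ± 0.57.

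CDKN2B had 2 probes, and A_23_P216812 reached the signal limit in no comparison. On A_24_P360674 the levels in Ls174T were -3.31 in si-control, -2.27 in si-MLLT10, -2.93 in si-BRG1 and -2.37 in si-P300, with sample signals of 1.35 to 1.53 times the background. The HEK293T levels were 0.00 in CM, 0.08 in si-control with Wnt3A, 0.09 in si-MLLT10, -0.28 in si-DOT1L, 0.87 in si-BRG1 and -0.14 in si-P300, with signals of 2.90 to 5.69 times the background. The lines did not overlap, and si-BRG1 was the highest of HEK293T. The Ls174T si-control sample was not well above background, and its signal was at least 6.90-fold below that of HEK293T with CM. Bounds of this kind, here and below, use channel signals after quantile scaling between arrays and not the ratios. The dim side is set to the lowest signal that stands well above background.

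BRG1 depletion in HEK293T raised CDKN2B by 0.79 ± 0.30 (1.73-fold), and with another background correction by 0.39, short of 1.5-fold. On A_23_P216812 the si-control sample with Wnt3A was not well above background. By signal it was at least 2.28-fold below CM. All 4 depletions were above it, by at least 4.24-fold in si-BRG1, 2.75-fold in si-MLLT10, 2.21-fold in si-P300 and 1.77-fold in si-DOT1L. The ratios of this probe, under the signal limit, changed by -1.05 with Wnt3A against CM. They changed by 2.12 in si-BRG1, 1.44 in si-MLLT10, 1.02 in si-P300 and 0.41 in si-DOT1L, so the bounds hold for signals only. On A_24_P360674 si-MLLT10, si-P300 and si-DOT1L gave 0.01, -0.22 and -0.36. On their shared slide si-BRG1 was above si-P300 by 1.01 ± 0.30 on A_24_P360674. β-catenin depletion in Ls174T gave 3.38 and 2.99 on its 2 arrays. The si-control channel was not well above background on either array, at 1.62 and 1.22 times the background. By scaled signal CDKN2B was at least 3.23-fold higher in si-b-catenin, whose signal was 2.01 and 2.18 times the background. With another background correction the change was 0.93, under 2-fold, so the bound holds for that scaling only. MLLT10 depletion in Ls174T gave at least 1.60-fold by scaled signal, with the same limit. The measured change was 1.04 ± 0.50 and became 0.24 with the other correction. By that measured change CDKN2B was the 1 member probe of 17 counted past 2-fold, which its bound does not reach. Of all probes 0.756% were higher and 0.996% lower.

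CDKN2C encodes p18 and had 1 probe. Its level was -0.46 in si-control, -0.48 in si-MLLT10, -0.48 in si-BRG1 and 0.67 in si-P300 of Ls174T. In HEK293T it was 0.22 in CM, -0.11 in si-control with Wnt3A, -0.40 in si-MLLT10, -0.47 in si-DOT1L, 0.34 in si-BRG1 and -0.80 in si-P300. The si-P300 array was the highest of Ls174T and the lowest of HEK293T. The changes were 1.14 ± 0.30 in Ls174T, where 4.09% of all probes were higher and 1.67% lower and this was the 1 member probe of 17 past 2-fold, and -0.69 ± 0.30 in HEK293T. The difference between the lines was not tested. In HEK293T si-P300, 0 of 17 member probes were higher and 2 lower, on CDKN2C and CCND2, where 4.17% of all probes were higher and 7.9% lower.

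Within the slides that held both depletions, CDKN2C was lower in si-BRG1 than in si-P300 in Ls174T, with a change of -1.16 ± 0.30, and higher in HEK293T, with a change of 1.14 ± 0.30. It was the 1 member probe of 17 past the fold in the former, where 1.29% of all probes were higher and 1.05% lower. In the latter 4 member probes were higher and 2 lower, with 10.6% and 9.69% of all probes. Against CM, CDKN2C changed by -0.62 in si-MLLT10, -0.69 in si-DOT1L, -1.02 in si-P300, -0.33 in si-control with Wnt3A and 0.12 in si-BRG1. In the 4 comparisons of depleted Wnt3A cells with CM, members higher and lower numbered 5 and 2 in si-MLLT10, 4 and 2 in si-DOT1L, 5 and 0 in si-BRG1 and 5 and 4 in si-P300. The shares of all probes were 4.08% and 3.66%, 2.94% and 2.82%, 7.03% and 7.63%, and 4.47% and 6.69%.

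**Figure D4:**
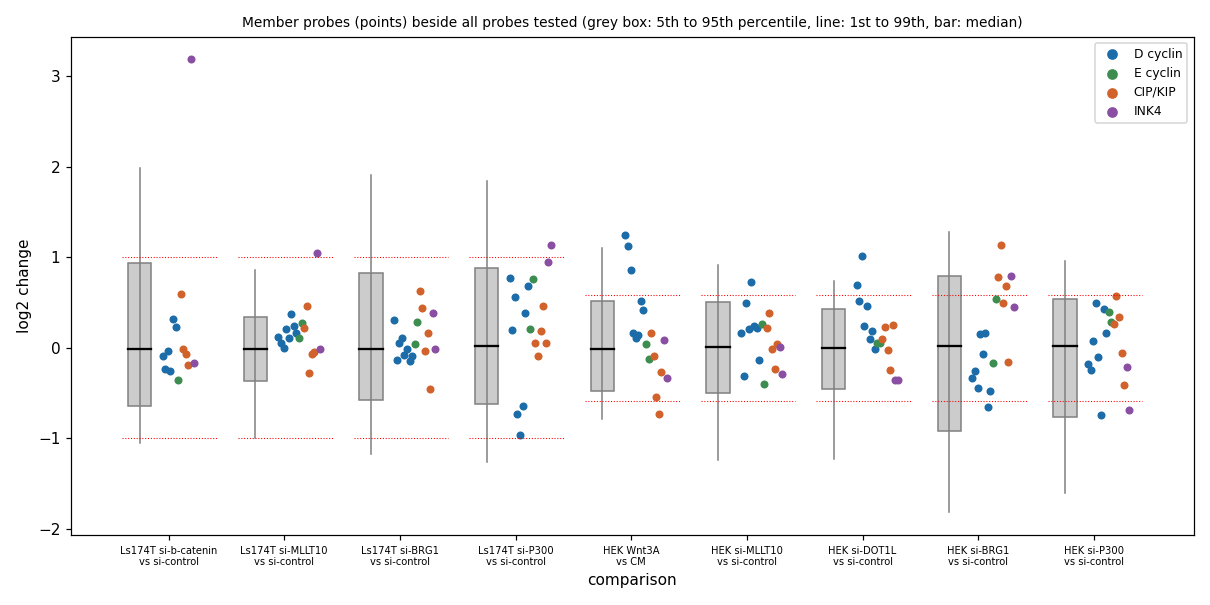
Changes of the member probes (points, coloured by class; vertical axis in log2 units) in the 9 comparisons (horizontal axis), beside all probes tested (grey box from the 5th to the 95th percentile, line from the 1st to the 99th, bar at the median) and the fold used (dotted). CDKN2B after β-catenin depletion is drawn at its measured 3.18, from a control channel not well above background, and the 3 CCND1 points lead in the Wnt3A column.

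The genes around the members in the pathway were read from 7 lists. CDK6, a partner of the D-type cyclins, was lower after β-catenin depletion on 2 of 2 probes, with -1.37 ± 0.20 for the larger change. After MLLT10 depletion in Ls174T its change was -1.01 ± 0.35 on A_23_P168651. In HEK293T A_24_P166663 changed by -0.70 ± 0.34 in si-MLLT10 and by -0.67 ± 0.33 in si-BRG1. In each of these depletions 1 of 2 probes passed the fold. No other CDK or activator passed 2-fold in Ls174T. The S phase list, with genes such as MCM2 and PCNA, had 18 of 18 probes below 0 after β-catenin depletion, with a median of -0.59 where the median of all probes was -0.02. None passed 2-fold, and 9 passed 1.5-fold, which 6.52% of all probes did downwards. The mitosis list had 9 of 9 measured probes below 0, with a median of -0.53 and 4 past 1.5-fold. These shifts stood beside CCNE1 at -0.36 and CCND1 at -0.24 to -0.04 in the same pair.

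After BRG1 depletion in HEK293T, where 10.4% of all probes were higher and 11.7% lower, the RB and E2F list had 4 of 21 probes higher and 0 lower, on RBL1, an RB relative (0.90 ± 0.37), E2F3 (0.60 ± 0.32) and E2F8 (0.59 ± 0.30). The S phase list had 0 of 18 higher and 3 lower, on CDT1 (-0.81 ± 0.31) and ORC1 (-0.79 ± 0.32), which load the replicative helicase. None of 11 mitosis probes passed. Of 15 probes of p53 targets other than CDKN1A 4 were higher and 2 lower, with FAS at 1.01 ± 0.31 and BTG2 at 0.83 ± 0.29 against BBC3 at -0.92 ± 0.29 and BAX at -0.82 ± 0.29. BBC3 passed the fold on 1 of 3 probes and BAX on 1 of 2. Among other inhibitors and turnover factors 2 of 17 probes were higher and 0 lower. The higher ones were on CDKN3 (0.72 ± 0.29) and the cyclin E ubiquitin ligase subunit FBXW7 (0.70 ± 0.32, 1 of 2 probes).

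P300 depletion raised CDKN2D, an INK4 gene with p19 as its product, by 1.59 ± 0.31 in Ls174T. It was the 1 of 17 probes of its list past 2-fold, where 4.09% of all probes were higher and 1.67% lower. CDKN2C changed by 1.14 there, and a joint change of the 2 genes was not tested. In HEK293T P300 depletion lowered E2F8, at -0.69 ± 0.29. TFDP1, the dimer partner of E2F proteins, was lower on 1 of 2 probes after MLLT10 (-0.60 ± 0.38) and DOT1L depletion (-0.68 ± 0.38) in HEK293T. In the S phase and mitosis lists no probe passed the fold in Ls174T si-MLLT10, si-BRG1 or si-P300, or in HEK293T after Wnt3A or in si-MLLT10, si-DOT1L or si-P300 set against si-control with Wnt3A.

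Among transcription factors known to act on the members, 5 of 20 probes were higher after β-catenin depletion and 1 lower. Of all probes 4.48% were higher and 1.17% lower there. KLF6 (1.94 ± 0.19), EGR1 (1.93 ± 0.20), FOS (1.81 ± 0.21) and KLF4 (1.66 ± 0.18) were higher. KLF4 and KLF6 are activators of CDKN1A, which changed by 0.60 on its 1 measured probe, under 2-fold. Whether these factors acted on CDKN1A here was not tested. P300 depletion in Ls174T lowered MYC, a repressor of CDKN1A and CDKN2B, to a change of -1.26 ± 0.31. CDKN1A changed by 0.05 and -0.09 there. CDKN2B changed by 0.95 from a control not well above background, and by 0.01 with another background correction. A link of MYC to these values was not tested. Wnt3A medium raised EGR1 by 2.74 ± 0.55 and FOS by 1.12 ± 0.52 in HEK293T. They were 2 of 24 probes, where 3.77% of all probes were higher and 2.77% lower. JUN was higher by 1.13 ± 0.36 in si-MLLT10, 0.73 ± 0.34 in si-DOT1L and 0.81 ± 0.35 in si-P300 of HEK293T. Against the same si-control array with Wnt3A, EGR1 was lower in si-BRG1 (-2.08 ± 0.50), si-MLLT10 (-1.63 ± 0.47) and si-P300 (-1.25 ± 0.45), and FOS was lower in si-BRG1 (-0.90 ± 0.51).

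The genes most like the members over the 10 reference arrays were named by the root mean square difference of levels centred within each line, over 23562 probes. The most variable probe of each class that was above background on all 10 arrays was used. CCND1 (A_24_P193011) was nearest to ASCL2, a Wnt-responsive transcription factor of intestinal stem cells, at 0.229, to PHLDA2 at 0.253 and to NDRG2 at 0.263. CCNE2 was nearest to ZNF180, ALG9 and HEXIM1, at 0.0956, 0.102 and 0.108. CDKN1B (A_24_P81841) was nearest to SENP7, HOXA13 and CEP170, at 0.0923, 0.125 and 0.126. CDKN2C was nearest to FRMD6, PRDM16 and LUC7L3, at 0.160, 0.164 and 0.168. The arrays share the reference RNA, and these values are descriptions.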

How the data were processed

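The authors hybridized the 12 arrays and read them with Agilent Feature Extraction, whose version is 10.5.1.1 in the file headers and 8.5.1.1 in the submitters' processing notes. The deposited log10 ratios are those of Cy5 over Cy3 signal after background subtraction and dye normalization by that program. The intensity columns the authors deposited hold the signal, local background and processed signal per spot and channel, and the deposited score is the program's error of the log10 ratio. The deposited value table holds the same log10 ratios, with the sign turned for the dye-exchanged array. Per the labels, reference RNA was in Cy5 on the 10 reference arrays and the siRNA sample in Cy3.

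Ratios were turned to sample over reference, converted from the deposited log10 to log2 and averaged over spots, without control spots and outliers. RefSeq accessions of 27612 of 28546 spots (96.7%) matched a symbol. The pair counts as 1 replicate. With so few arrays the precision is low, and no test between conditions was made. Python 3.11.15 and, for the alternatives, R 4.3.3 with limma 3.58.1 were used, and the scripts that compute the changes were checked on simulated data. Named were all member probes, the siRNA targets and genes of the lists. The latter came from those past the fold and well above background in the sample, at most the 4 with the largest change per list and comparison. Not every gene that met this was named. Among those left out were CDC25A (0.67) in HEK293T si-BRG1, and GADD45A (-0.96) and TP53I3 (0.95) in HEK293T si-P300. BBC3 (0.72) in HEK293T si-MLLT10 and PLK3 (0.74) after Wnt3A were also left out. Members, lists and folds were chosen with earlier results of these data known, and the comparison of the si-control arrays of both lines was added after the values were seen. Alternatives were normexp correction (offset 50) with loess, the value table, the sample channel alone scaled to its 75th percentile, filters, outlier spots and the fold.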

Additional observations from a re-analysis of the deposited data

Results flagged for a closer look

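CDKN2C (A_23_P85460) differed in direction between the lines after P300 depletion. The change to si-control was 1.14 ± 0.30 in Ls174T and -0.69 ± 0.30 in HEK293T, 1 array against 1 array in each. The difference was not tested, since each condition was 1 RNA. The HEK293T control array lay on another slide than the si-P300 array, as did that of Ls174T, and the part of the slide was not tested.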

How the results depend on the processing

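The 17 named single-probe changes of the 9 comparisons, and those of the other comparisons, gave 311 values under alternative settings. Of these 298 stayed within the program error of the reported one and 13 moved beyond it. Most of the 298 say little, since the value table holds the same ratios. The filters and the outlier setting choose spots and do not alter their ratios. With normexp correction 8 values moved and 44 stayed, and in the sample channel alone 5 moved and 46 stayed. None of the 52 changes past the fold changed sign. Of 64 counts of member probes past the fold, 46 stayed within 1.5 times. With normexp correction the counts for β-catenin (1 reported) and Ls174T si-MLLT10 (1 reported) became 0 and 0, both through CDKN2B, and they were also 0 and 0 where only probes well above background in the sample were used. With no filter on signal they were 2 for β-catenin and 2 for HEK293T si-MLLT10 (1 reported). At 1.5-fold the Ls174T counts were 2 for β-catenin, 1 for si-BRG1 (0 reported) and 8 for si-P300 (1 reported). At 2-fold the HEK293T counts were 2 for Wnt3A (4 reported), 0 for si-MLLT10, 1 for si-DOT1L (2 reported), 1 for si-BRG1 (5 reported) and 0 for si-P300 (2 reported). From the sample channel alone they were 2 for Ls174T si-P300, 7 for Wnt3A, 3 for HEK293T si-MLLT10 and 8 for HEK293T si-BRG1. The cause was not tested for these differences. Using either array of the β-catenin pair alone gave 1 and 1. The sample channel alone was not run for the pair, which holds no reference, and no alternative was run for the comparison of the lines. No paired analysis was possible because each condition was 1 RNA. Signal limits the CDKN2B values of Ls174T, whose control was not well above background.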
